A study of Homo sapiens with 12 samples.

Results

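Surface proteins that antibodies, antibody-drug conjugates, bispecific antibodies or CAR T cells can bind on malignant plasma cells were followed at the mRNA level in JJN3, a human multiple myeloma cell line. They are TNFRSF17 (BCMA), CD38, SDC1 (CD138), SLAMF7, GPRC5D, FCRL5, CD48, CD47, NCAM1 (CD56) and LY9 (CD229). These 10 genes were picked by name, as markers or drug targets in myeloma, from the 59276 gene symbols of the expression table. Earlier results of these data were known at the time. All 10 were present in it.

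Plasma cells lose most of the surface proteins of B cells and keep or gain others, and myeloma cells share that surface. BCMA receives the ligands BAFF and APRIL and is shed by gamma-secretase, CD38 is an ectoenzyme that consumes NAD, and syndecan-1 carries heparan sulfate chains. SLAMF7, CD48 and LY9 belong to the SLAM family of immune receptors, CD47 is the ligand through which SIRPα restrains macrophages, NCAM1 mediates adhesion, GPRC5D is an orphan receptor, and FCRL5 is an Fc receptor-like protein of the B lineage.

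RNA of 12 JJN3 samples was sequenced, in 4 groups of 3. Wildtype cells received either DMSO or 10 µM MS023, an inhibitor of the type I protein arginine methyltransferases, to which PRMT1 belongs, for 3 days. The other groups were Cas9-expressing JJN3 cells selected with puromycin and given doxycycline for 3 days to induce a guide, either a control guide (isgCtrl) or a PRMT1 guide (PRMT1-KO). No MS023 or DMSO is named for those cells, and the PRMT1-KO samples come from 1 guide, without a second to set beside it. Nothing in the labels says that the 3 samples of a group are separate cultures, so p-values measure the spread between these samples, which may be technical.

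The values are TPM, which are scaled by the library's total and by transcript length and so can be compared between genes, or log2(TPM+1). The labels state more than 60000000 read pairs for each sample, but TPM do not keep the depth. The call of a gene asked for a limma adjusted p under 0.05 and a log2 fold change beyond 0.48 in either direction. It was tested when its mean log2(TPM+1) passed 1 in either group. Fold changes on this scale are smaller than the ratio of TPM for low genes. As the check of the guide, PRMT1 mRNA averaged 859.8 TPM in isgCtrl (849.4 to 866.6 TPM) and 304.0 TPM in PRMT1-KO (301.2 to 309.0 TPM), a log2 difference of -1.50 (SE 0.04, limma with Benjamini-Hochberg adjustment, adjusted p = 7.2e-04). The plasma cell markers IRF4, PRDM1, XBP1, MZB1, JCHAIN and POU2AF1 averaged above 1 TPM in all 4 groups, MZB1 in PRMT1-KO only just (1.01 TPM, with a sample at 0.341 TPM). Of the B cell, T cell and myeloid markers none of 12 averaged above 1 TPM in any group, and CD22 was listed at 0 throughout. Of 3 NK cell markers only NCR1 did, at 1.91 TPM in isgCtrl against 0.531 TPM in PRMT1-KO. Replicates correlated across genes at r = 0.993 to 0.996.

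The surface targets fell into abundant and scarce mRNAs. In DMSO-treated cells TNFRSF17 was the most abundant, with 170.3 ± 6.95 TPM (SD, n = 3), above 93.6% of the 12277 expressed genes. SDC1, CD47 and CD48 followed at 101.7, 82.0 and 81.9 TPM, and the samples of CD47 and CD48 overlapped. GPRC5D averaged 13.4 TPM, SLAMF7 9.32, CD38 4.96, NCAM1 3.19 and LY9 1.94 TPM, each lower than the one before in all samples. FCRL5 was at or below 0.169 TPM in all 12 samples. The 4 abundant genes stayed above 60 TPM in every sample of every group, and the targets called with MS023 were all among the scarce ones.

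**Figure D1:**
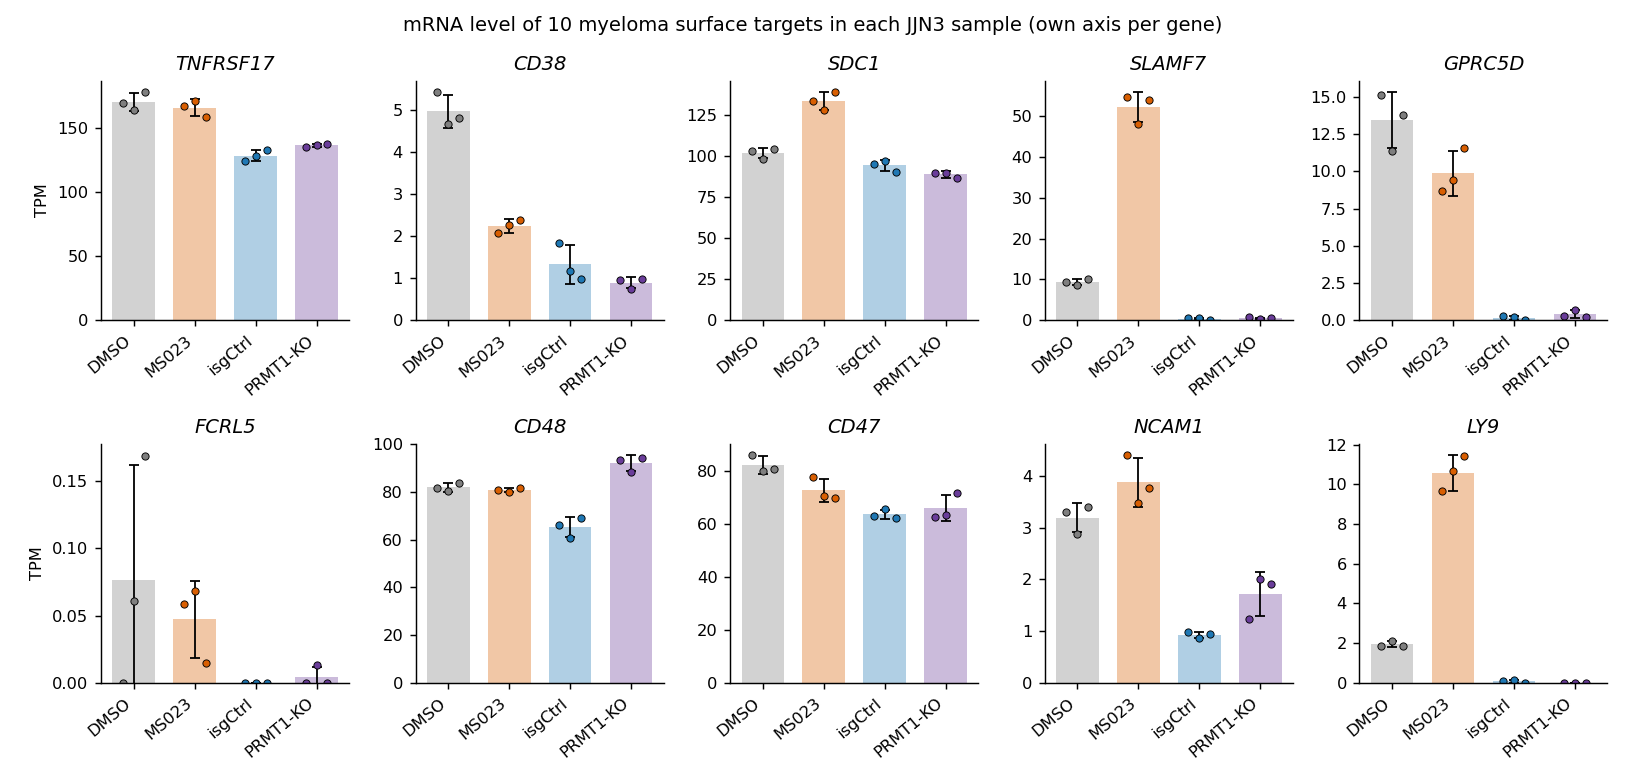
mRNA level in TPM (vertical axis, linear from 0, with its own scale for each gene) of the 10 surface targets in the 4 groups. Points are single samples, bars are means and error bars are the SD of 3 samples. SLAMF7 rose from 9.32 to 52.2 TPM with MS023, while SLAMF7, GPRC5D, FCRL5 and LY9 were below 1 TPM in all isgCtrl and PRMT1-KO samples.

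With MS023, 3 of 9 targets tested were called, SLAMF7 and LY9 higher and CD38 lower, against 30.9% of all 12903 genes tested. By direction, the background was 11.6% called higher and 19.3% called lower. The share of targets called was therefore near that of all genes. The median log2 fold change was -0.018 over the targets and -0.11 over all genes. Samples of MS023 and DMSO did not overlap for 6 of 9 targets, beside 59.5% of all genes. In PRMT1-KO cells 1 of 6 targets tested was called, CD48, which was higher. Among all 12285 genes tested there, 0.781% were called, 0.415% higher and 0.366% lower. Groups did not overlap for 4 of 6 targets, beside 26.7% of genes, and the medians were 0.067 and -0.038. NCAM1 was tested there only through PRMT1-KO, as its isgCtrl mean of log2(TPM+1) was 0.95. CD38 was tested only through isgCtrl, as its PRMT1-KO mean was 0.92. Their part in these counts and in the median is thus not independent of the filter.

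**Figure D2:**
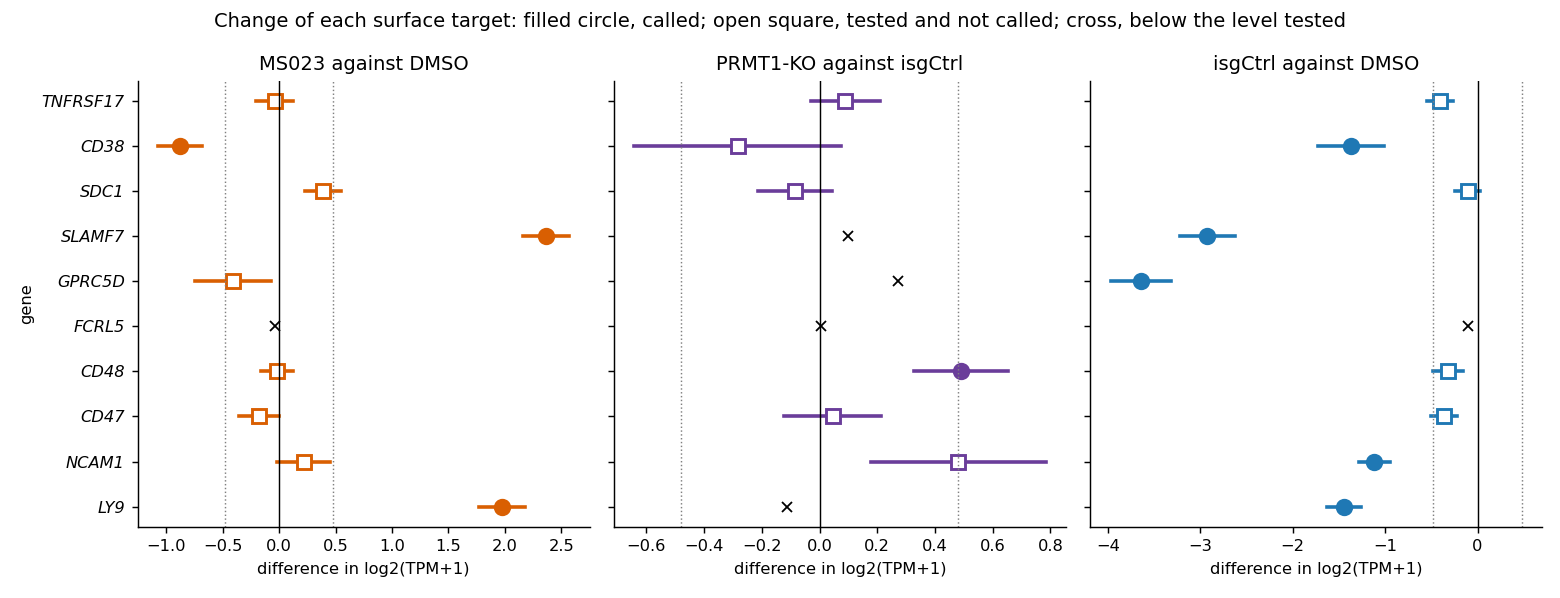
Difference in log2(TPM+1) of each target (horizontal axis, different scale in each panel) in 3 comparisons, with 95% confidence intervals from limma. Filled circles were called, open squares were tested and not called, crosses were below the level tested, and dotted lines mark 0.48 in either direction. SLAMF7 (2.37) and LY9 (1.98) lie farthest to the right with MS023, and CD48 (0.49) is the one filled point for PRMT1-KO.

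Of the SLAM family receptors, SLAMF7, the target of elotuzumab, changed most with MS023. It was 9.24, 8.71 and 10.0 TPM in the DMSO samples and 54.7, 48.1 and 53.8 TPM in the MS023 samples. All MS023 samples were thus far above all DMSO samples, and SLAMF7 went from the 42.4th to the 81.7th percentile of expressed genes. The log2 fold change was 2.37 (SE 0.08, limma, adjusted p = 5.5e-05), or 2.48 relative to the median of all genes, a 5.60-fold ratio of mean TPM. In cells with guides it was near 0, at 0.520, 0.436 and 0.149 TPM in isgCtrl and 0.657, 0.308 and 0.425 TPM in PRMT1-KO, which overlapped. In these bulk samples a change in the share of cells with a transcript cannot be told apart from a change in its amount per cell.

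LY9, a SLAM receptor found on myeloma cells, rose nearly as much from a lower level. Its DMSO samples had 1.84, 2.11 and 1.87 TPM and its MS023 samples 9.64, 10.7 and 11.4 TPM. The lowest MS023 sample was above the highest DMSO sample by several times the spread within either group. This is a log2 fold change of 1.98 (SE 0.08, limma, adjusted p = 6.2e-05), or 2.09 relative to the median of all genes, and a 5.45-fold ratio. LY9 was 0.108, 0.140 and 0 TPM in isgCtrl and listed at 0 in all PRMT1-KO samples, so no ratio is given for the knockout.

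CD48, the GPI-anchored SLAM family member, behaved differently from both. It was 81.6, 80.2 and 83.8 TPM with DMSO and 81.0, 80.0 and 81.6 TPM with MS023. These groups overlapped, at a log2 difference of -0.018 (95% CI -0.16 to 0.12, limma, adjusted p = 0.813). In PRMT1-KO it was 93.6, 88.2 and 94.5 TPM against 66.1, 60.8 and 69.1 TPM in isgCtrl, higher in every sample. At 0.49, the log2 fold change was just past the threshold (SE 0.07, limma, adjusted p = 0.0405). Without any 1 of the 6 samples CD48 was no longer called, with log2 fold changes of 0.44 to 0.53 and adjusted p of 0.0914 (without isgCtrl replicate 3), 0.104 (PRMT1-KO 2), 0.119 (isgCtrl 2), 0.125 (PRMT1-KO 3), 0.131 (isgCtrl 1) and 0.136 (PRMT1-KO 1). The PRMT1-KO level was also above that of both groups of wildtype cells, while isgCtrl was the lowest of the 4 groups. The 250 bases before its RefSeq start (GRCh38.p14, chr1:160711823-160712072, minus strand) are shown because CD48 was the one target called in the knockout. The 6 motifs searched on both strands were the E-box CACGTG, the GC box GGGCGG, the TATA box TATAAA, the CCAAT box, and a pair of composites whose half-sites are 2 free bases apart. These are the IRF repeat, GAAA with GAAA, and the ETS and IRF composite, GGAA with GAAA, which can overlap each other. None was in this window, which therefore has no capitals.
CD48: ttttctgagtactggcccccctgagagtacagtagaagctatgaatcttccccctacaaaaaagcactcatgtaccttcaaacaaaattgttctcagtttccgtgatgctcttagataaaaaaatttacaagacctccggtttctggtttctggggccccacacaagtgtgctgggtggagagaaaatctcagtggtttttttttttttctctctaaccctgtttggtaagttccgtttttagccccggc

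SLAMF7, LY9 and CD48 lie beside each other on chromosome 1 (GENCODE v44, GRCh38). SLAMF7 spans chr1:160739057-160754821 and LY9 chr1:160796074-160828261, both on the plus strand, and CD48 chr1:160678746-160711831 on the minus strand. The start of CD48 is 27.2 kb before and that of LY9 57.0 kb after the start of SLAMF7. The window of 250 kb on either side, chosen after the values were seen, holds 9 protein-coding genes, and 5 of them averaged under 1 TPM in all groups. SLAMF6 was the other gene of the window with a level above 1 TPM, at 0.571 TPM with DMSO and 1.16 TPM with MS023, and was listed at 0 in all 6 samples with guides. Its log2 difference with MS023 was 0.46 (SE 0.11, limma, adjusted p = 0.0178), under the threshold, and it was tested only through its MS023 level. CD84, SLAMF1 and CD244 stayed at or below 0.671 TPM in every sample, and ITLN1 and ITLN2 were listed at 0 in all of them. Neighbours of SLAMF7 on the chromosome thus ranged from a 5.45-fold higher LY9 to a CD48 that did not pass the test.

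Among the antigens that define plasma cells, TNFRSF17 (chr16:11965210-11968068) kept its level under MS023. It was 169.5, 163.8 and 177.7 TPM with DMSO and 167.4, 171.2 and 158.5 TPM with MS023, which overlapped. This was a log2 difference of -0.039 (95% CI -0.20 to 0.12, limma, adjusted p = 0.648), and the interval leaves out changes as large as the threshold. The samples with guides were lower, 124.3, 127.7 and 132.6 TPM in isgCtrl and 135.2, 136.3 and 137.7 TPM in PRMT1-KO. PRMT1-KO was above isgCtrl in every sample, by 0.089 on the log2 scale (95% CI -0.030 to 0.21, limma, adjusted p = 0.376).

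SDC1 (chr2:20200797-20225433, minus strand), the heparan sulfate proteoglycan by which plasma cells are sorted, was 102.8, 98.1 and 104.1 TPM with DMSO. With MS023 it was 133.3, 128.0 and 138.7 TPM, higher in every sample. The log2 fold change of 0.39 (SE 0.06, limma, adjusted p = 0.0042) passed on p and stayed under the fold threshold. Relative to the median of all genes it was 0.50, and under median-ratio scaling it was 0.51 and called (limma, adjusted p = 9.5e-04). In isgCtrl SDC1 was 95.2, 97.2 and 90.4 TPM and in PRMT1-KO 89.9, 89.9 and 86.5 TPM, lower in every sample, a log2 difference of -0.086 (95% CI -0.21 to 0.042, limma, adjusted p = 0.425).

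CD38 (chr4:15778275-15853232), the target of daratumumab and isatuximab, was the one target called lower with MS023. DMSO samples had 5.41, 4.65 and 4.81 TPM and MS023 samples 2.06, 2.27 and 2.38 TPM, without overlap. The log2 fold change was -0.88 (SE 0.08, limma, adjusted p = 4.6e-04), or -0.77 relative to the median of all genes, which leaves 0.451 times the mean TPM of DMSO. The percentile of CD38 went from 28.1 to 14.2. In isgCtrl it was 1.84, 1.17 and 0.969 TPM and in PRMT1-KO 0.953, 0.734 and 0.985 TPM. These groups overlapped, with a log2 difference of -0.28 (95% CI -0.64 to 0.075, limma, adjusted p = 0.354). JJN3 cells thus held little CD38 mRNA in any group.

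GPRC5D (chr12:12940575-12952170, minus strand), the target of talquetamab, was the target with the largest log2 difference between isgCtrl and DMSO. It was 15.1, 11.4 and 13.8 TPM with DMSO and 8.67, 9.41 and 11.6 TPM with MS023. The highest MS023 sample was above the lowest DMSO sample, and the log2 fold change was -0.41 (SE 0.14, limma, adjusted p = 0.0523). It was called without DMSO 2 (-0.51, adjusted p = 0.0334) or without MS023 3 (-0.52, adjusted p = 0.0300). Samples of isgCtrl had 0.262, 0.195 and 0 TPM and those of PRMT1-KO 0.304, 0.703 and 0.199 TPM, all below 1 TPM and overlapping.

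Promoter windows of CD38 and GPRC5D are shown next, as examples of targets called lower in isgCtrl than in DMSO-treated cells for which a window was at hand. RefSeq windows matched 6 of the 10 targets, with a pair for SDC1, and TNFRSF17, SLAMF7, NCAM1 and LY9 had no entry. Capitals mark letters of the motifs named above, on either strand. In CD38 (chr4:15778078-15778327, plus strand) they are a CCAAT box and the ETS and IRF composite, and in GPRC5D (chr12:12952171-12952420, minus strand) TATA boxes and a GC box.
CD38: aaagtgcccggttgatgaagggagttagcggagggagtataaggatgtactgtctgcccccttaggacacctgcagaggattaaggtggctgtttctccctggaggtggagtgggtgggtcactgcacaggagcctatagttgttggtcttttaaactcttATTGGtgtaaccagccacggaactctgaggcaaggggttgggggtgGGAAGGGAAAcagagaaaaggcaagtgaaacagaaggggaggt
GPRC5D: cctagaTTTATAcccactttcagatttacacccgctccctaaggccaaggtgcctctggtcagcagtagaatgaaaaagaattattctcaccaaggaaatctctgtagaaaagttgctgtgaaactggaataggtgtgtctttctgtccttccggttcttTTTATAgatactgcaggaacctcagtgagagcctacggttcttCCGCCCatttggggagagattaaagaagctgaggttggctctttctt

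Of 35116 promoter windows of the same length, 2.41% hold the ETS and IRF composite, 3.02% the IRF repeat, 6.34% the E-box, 10.7% the TATA box, 32.0% the CCAAT box and 42.6% the GC box. CD38 was the one of 7 windows of targets with the composite. The IRF repeat and the E-box were in none of the 7 windows. G and C made up 52.4% of the CD38 window, 44.4% of that of GPRC5D and 43.2% of that of CD48, beside a median of 58.0% over all windows and 79.6% for CD47. A match of letters is a description of the sequence and does not show that a factor binds there.

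FCRL5 (chr1:157513377-157552515, minus strand), the target of cevostamab, was too low to be tested in any comparison. DMSO samples had 0, 0.0609 and 0.169 TPM and MS023 samples 0.0584, 0.0680 and 0.0149 TPM. It was listed at 0 in all isgCtrl samples and at 0, 0.0131 and 0 TPM in PRMT1-KO.

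CD47 (chr3:108043091-108091862, minus strand) was 85.8, 79.8 and 80.5 TPM with DMSO and 77.5, 70.3 and 69.8 TPM with MS023. Every MS023 sample was below every DMSO sample. The log2 fold change was -0.18 (95% CI -0.35 to 0.00047, limma, adjusted p = 0.0892), or -0.065 relative to the median of all genes. In isgCtrl CD47 was 63.0, 65.5 and 62.3 TPM and in PRMT1-KO 62.7, 63.2 and 71.4 TPM, which overlapped. That log2 difference was 0.045 (95% CI -0.12 to 0.21, limma, adjusted p = 0.755), and it was -0.015 without PRMT1-KO 3, the highest of these samples.

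NCAM1 (chr11:112961275-113278436), which many myelomas carry and normal plasma cells mostly lack, was scarce. It was 3.30, 2.87 and 3.41 TPM with DMSO and 4.40, 3.47 and 3.76 TPM with MS023, higher in every sample. This was a log2 difference of 0.22 (95% CI -0.020 to 0.45, limma, adjusted p = 0.111). In isgCtrl it was 0.978, 0.868 and 0.944 TPM and in PRMT1-KO 1.23, 2.01 and 1.91 TPM, again without overlap. The log2 fold change of 0.48 was close to that of CD48 in size, with a larger error (SE 0.12, limma, adjusted p = 0.138). NCAM1 was tested there only through its PRMT1-KO level.

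More targets were called between the control groups than between PRMT1-KO and isgCtrl, as were more of all genes (13.9% beside 0.781%). SLAMF7, GPRC5D and LY9 were not tested between PRMT1-KO and isgCtrl, so these counts of targets are not alike. In isgCtrl 5 of 9 targets tested were called lower than in DMSO-treated cells and none higher, beside 13.9% of 12661 genes called, 7.23% higher and 6.7% lower. All 9 were below DMSO in every sample, beside 51.7% of genes whose groups did not overlap. An unadjusted limma p under 0.05 was found for 8 of 9, beside 5944 of all 12661 genes. The median log2 difference was -1.12 over the targets and 0.066 over all genes. GPRC5D, SLAMF7, LY9 and NCAM1 were tested here only through their DMSO level, since their isgCtrl means of log2(TPM+1) were 0.20, 0.44, 0.11 and 0.95, so they could be called only lower. Their part in all these counts and in the median is thus not independent of the filter. With a level above 1 asked of every sample, 4 targets were tested and limma called 0. The log2 difference was -3.65 for GPRC5D (SE 0.13, limma, adjusted p = 8.3e-05), -2.92 for SLAMF7 (SE 0.12, adjusted p = 1.2e-04) and -1.44 for LY9 (SE 0.07, adjusted p = 2.5e-04). For CD38 it was -1.37 (SE 0.14, limma, adjusted p = 0.0021) and for NCAM1 -1.12 (SE 0.07, adjusted p = 4.6e-04). The abundant targets differed less, TNFRSF17 by -0.41, CD47 by -0.36, CD48 by -0.32 and SDC1 by -0.11. These groups differ in Cas9, the guide, puromycin, doxycycline and DMSO at once, which cannot be told apart. Both this comparison and that of MS023 use the same DMSO samples, and both this one and that of PRMT1-KO use the same isgCtrl samples.

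Plasma cell markers also differed between these groups, not all in 1 direction. Summed over the 6 markers, the DMSO samples had 5270 to 5508 TPM and the MS023 samples 11423 to 11775 TPM, mostly from JCHAIN. The isgCtrl samples had 2539 to 2614 TPM and the PRMT1-KO samples 2753 to 2942 TPM. With MS023, 5 of the 6 were called higher, all but IRF4, beside 11.6% of all genes called higher and 19.3% lower. The targets TNFRSF17, SDC1 and CD38 are plasma cell markers too. With MS023, TNFRSF17 and SDC1 were not called and CD38 was called lower. In isgCtrl against DMSO, MZB1 (105.3 to 2.01 TPM, log2 difference -5.15) and JCHAIN (4836 to 1972 TPM, -1.29) were called lower and IRF4 (95.1 to 157.4 TPM, 0.72) higher. POU2AF1 (0.43), PRDM1 (0.40) and XBP1 (0.12) were not called, and the median over the 6 markers was 0.26. Their part in the differences of the targets was not tested.

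Whether MS023 and PRMT1-KO changed a target unequally was tested over all 12 samples together, where 24.4% of 13256 genes were called, 9.69% higher and 14.7% lower. Of the 9 targets tested, 5 were called. The effect of MS023 exceeded that of PRMT1-KO for SLAMF7 by 2.27 (SE 0.17, limma, adjusted p = 7.5e-06) and for LY9 by 2.09 (SE 0.10, adjusted p = 7.6e-07). For CD48 the difference was -0.51 (SE 0.08, limma, adjusted p = 8.6e-04), and it lost its call without isgCtrl 2 (-0.46), under median-ratio scaling (-0.40) and under quantile normalization (-0.46). For CD38 it was -0.60 (SE 0.17, limma, adjusted p = 0.0223) and for GPRC5D -0.68 (SE 0.22, adjusted p = 0.0373). The isgCtrl levels of SLAMF7, LY9 and GPRC5D were below 1 TPM, so a decrease in PRMT1-KO could hardly have been measured for them. Rises from such levels also come out smaller on log2(TPM+1) than the ratio of TPM. GPRC5D, with overlapping groups, had 2.64 times the isgCtrl mean TPM in PRMT1-KO but a log2 difference of 0.27. For these targets the differences of effects thus depend partly on the starting level, and the ratios of TPM were not tested. SDC1 differed by 0.47 (SE 0.07, limma, adjusted p = 8.4e-04), just under the threshold, and TNFRSF17, CD47 and NCAM1 did not pass on p, at -0.13, -0.22 and -0.26.

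Calls for CD38 and GPRC5D also depended on single samples. CD38 lost its call without DMSO 1 (-0.54, limma, adjusted p = 0.0524), MS023 1 (-0.56, adjusted p = 0.0505), isgCtrl 2 (-0.55, adjusted p = 0.0525) or PRMT1-KO 3 (-0.56, adjusted p = 0.0517). GPRC5D lost it without DMSO 1 or 3, MS023 1 or 2, isgCtrl 2 or 3, or PRMT1-KO 1 or 2, with differences of -0.53 to -0.73 and adjusted p of 0.0507 to 0.0840. SDC1 passed without DMSO 1 (0.48), DMSO 3 (0.49), MS023 2 (0.50), isgCtrl 3 (0.50), PRMT1-KO 1 (0.48) or PRMT1-KO 2 (0.48).

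Ligands, partners and relatives of the targets were read from 12 lists of 78 genes. The lists were chosen with earlier results of these data known, so their shares beside all genes are a description and no test. With MS023, 46 were tested, 16 of them rose and 4 fell, or 43.5% beside 30.9% of all genes, with a median log2 fold change of 0.17 beside -0.11. By direction the background was 11.6% higher and 19.3% lower. Of the genes called, MUC1 was tested there only through its MS023 level, and NT5E and KIT only through their DMSO level. Of those not called, SLAMF6 was tested only through MS023 and HPSE only through DMSO. In PRMT1-KO 39 were tested and limma called none, beside 0.781% of all genes. At an unadjusted p under 0.05 there were 9 of these 39 and 2290 of all 12285 genes, and the median was 0.031. ITGB7 there had an adjusted p of 0.0403 and a log2 fold change of 0.37. In isgCtrl against DMSO 2 were called higher and 15 lower of 45 tested, or 37.8% beside 13.9% of all genes (7.23% higher and 6.7% lower). Of those 15, FCRLA, HPSE, QPCT, CD40 and LILRB4 averaged below 1 TPM in isgCtrl and were tested only through DMSO.

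TNFRSF13B (TACI), the other receptor for BAFF and APRIL on plasma cells, rose from 11.96 to 42.2 TPM with MS023, a log2 fold change of 1.74 (SE 0.11, limma, adjusted p = 1.6e-04), while BCMA did not pass the test. The ligands TNFSF13 and TNFSF13B and the receptor TNFRSF13C were below the level tested. None of 5 gamma-secretase genes tested was called by limma. An unadjusted limma p under 0.05 was found for 4, APH1A lower and the others higher, beside 7286 of all 12903 genes. NCSTN, the subunit that receives substrates, came nearest, at 82.1 TPM with DMSO and 114.7 TPM with MS023 (log2 difference 0.47, limma, adjusted p = 0.0095).

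In the CD47 list all 3 genes tested rose with MS023. QPCTL and QPCT, glutaminyl cyclases of which QPCTL modifies the N terminus of CD47, went from 12.3 to 22.3 TPM and from 15.4 to 26.3 TPM. Their log2 fold changes were 0.81 (SE 0.07, limma, adjusted p = 3.6e-04) and 0.74 (SE 0.12, adjusted p = 0.0044). CALR, a chaperone of the endoplasmic reticulum that promotes phagocytosis when exposed on the surface, rose from 658.2 to 1322 TPM (1.00, SE 0.06, limma, adjusted p = 1.2e-04). SIRPA, SIRPG, SIRPB1 and THBS1 were below the level tested.

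Of the other surface antigens of myeloma, the longest of the 12 lists with 17 genes, 16 were tested with MS023. Of these 10 rose and 1 fell, beside 11.6% and 19.3% of all genes, in a list chosen with earlier results of these data known. The adhesion receptors ITGB7 (452.6 to 1451 TPM, log2 fold change 1.68), CD44 (41.0 to 128.0 TPM, 1.61), ICAM1 (28.0 to 51.9 TPM, 0.87) and SELPLG (21.5 to 37.5 TPM, 0.77) were among them. So were the inhibitory receptor LILRB4 (10.5 to 50.2 TPM, 2.15) and the costimulatory molecules CD28 (8.03 to 36.1 TPM, 2.04), CD40 (1.36 to 8.19 TPM, 1.96) and CD70 (257.0 to 372.1 TPM, 0.53). SEMA4A (1.49) and MUC1 (1.01) completed the list, each with a limma adjusted p of 0.0014 or less. CXCR4, the chemokine receptor that retains plasma cells in the marrow, fell from 26.1 to 13.4 TPM (-0.91, SE 0.08, limma, adjusted p = 3.7e-04).

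Single genes of the remaining lists were called with MS023. FCRLA, an intracellular relative of FCRL5, rose by 0.79 (1.63 to 3.56 TPM, limma, adjusted p = 0.0126), and SDC2, another syndecan, by 0.54 (24.8 to 36.2 TPM, adjusted p = 0.0156). SH2D1A (SAP), the adaptor of SLAM receptors, had a log2 fold change of -0.55 (23.7 to 15.8 TPM), the ectonucleotidase NT5E (CD73) -0.58 (1.28 to 0.514 TPM) and the receptor tyrosine kinase KIT -1.05 (1.996 to 0.451 TPM), with limma adjusted p of 0.0070, 0.0435 and 2.5e-04. None of the complement inhibitors CD46, CD55 and CD59 was called by limma, with 1 at an unadjusted p under 0.05, CD59. GPRC5A, GPRC5B and GPRC5C were below the level tested.

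Genes with the profile most like each target over the 12 samples were sought among those above 1 in the mean of every group, as a description. Pearson's r was highest for SLAMF7 with ST6GAL1 (0.998), NLRP7 and LAP3, and for LY9 with ANXA2 (0.996), CD320 and EMP3. TNFRSF17 was nearest to RPL23A (0.983), HMGN3 and RPS13, SDC1 to SDF4 (0.987), GOSR2 and P2RY8, and CD38 to G6PC3 (0.974), DPM1 and CHID1. GPRC5D was nearest to FKBP11 (0.985), DBI and GHITM, CD47 to PSMD14 (0.960), CALM2 and SH3BGRL, and NCAM1 to ITM2B (0.975), TMEM59 and LAPTM4A. CD48 was nearest to HLA-DMB (0.963), PAGE5 (0.904) and S100A8 (0.897). Between targets, r was 0.99 for SLAMF7 and LY9, 0.97 for SDC1 and LY9 and 0.96 for TNFRSF17 and GPRC5D, whereas CD48 stayed between -0.017 and 0.47 with every other target. The 12 points share 4 groups, so r mostly reflects group means.

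Scaling mattered for directions near 0. Median-ratio scaling moved the median log2 fold change of all genes with MS023 by 0.11, and the share of lower calls went from 62.4% to 48.9%. It turned TNFRSF17 to 0.080 and CD48 to 0.10. The share of lower calls went from 46.9% to 31.2% for PRMT1-KO, from 48.1% to 65.5% for isgCtrl against DMSO and from 60.3% to 45.5% for the difference of effects. SLAMF7, LY9 and CD38 kept their direction and call with MS023 under median-ratio scaling and quantile normalization.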

How the data were processed

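The authors checked reads with FastQC, trimmed them with Trimmomatic, aligned with STAR to hg38 (Gencode V35), quantified transcripts with Salmon, and deposited log2(TPM+1) of each gene. TPM add to the same total in every sample, so depth is lost, low values are uncertain and count models were not used. Tool versions are not given in the sources used here. Targets and lists were chosen with earlier results of these data known.

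Groups follow the labels, and no sample was left out. Each comparison used limma 3.58.1 (R 4.3.3, eBayes with no trend) on its own 6 samples, and the difference of effects used all 12, with Benjamini-Hochberg adjustment over all genes tested. Code was tested on simulated data. With 3 samples against 3 the smallest two-sided exact permutation p is 0.1. Named are all 10 targets, list genes called in either main comparison and the 3 genes most like each target. SLAMF6, NCSTN, ITGB7 in PRMT1-KO, CD59 and other genes not called were named after their values were seen. Alternatives changed the pseudocount (0.1), filter, scaling, eBayes trend, samples, replicate block and thresholds. Positions come from GENCODE v44 on GRCh38, and promoter sequences from RefSeq on GRCh38.p14. Same-numbered samples had correlations of deviations of -0.228 to 0.102. The labels do not say that numbers pair samples, and they were taken not to.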

Additional observations from a re-analysis of the deposited data

Results flagged for a closer look

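The effects of MS023 and of PRMT1-KO differed at an adjusted p under 0.05 for 24 genes, without a fold threshold. The test was limma's on the difference itself over all 12 samples, with Benjamini-Hochberg adjustment over 13256 genes. The genes were counted among the targets and the list genes called in either main comparison. For PRMT1-KO limma called none of the list genes, so these entered through their MS023 effect, which is part of the difference. Their passing thus depends on that choice, and their number is a description and no test. Of the 16 list genes called higher and 4 called lower with MS023, only SDC2 and NT5E did not pass. Each value is the log2 effect of MS023 from which the effect of PRMT1-KO was subtracted. Among the targets they were 2.27 for SLAMF7, 2.09 for LY9, 0.47 for SDC1, -0.51 for CD48, -0.60 for CD38 and -0.68 for GPRC5D. Among other surface antigens they were 2.33 for LILRB4, 2.05 for CD40, 1.44 for CD44, 1.31 for ITGB7, 1.29 for CD28, 1.25 for SEMA4A, 1.02 for MUC1, 0.76 for ICAM1, 0.62 for SELPLG, 0.40 for CD70 and -0.83 for CXCR4. Of the ligands, partners and relatives, the difference was 2.16 for TNFRSF13B, 1.13 for QPCT, 1.08 for CALR, 0.97 for FCRLA, 0.73 for QPCTL, -0.59 for KIT and -0.68 for SH2D1A. The largest adjusted p of these was 0.0373, for GPRC5D. SDC1 and CD70 passed on p but stayed under the fold threshold used for calls. SLAMF7, LY9, GPRC5D, LILRB4, CD40, QPCT, FCRLA and MUC1 averaged below 1 TPM in isgCtrl, which bounds how far they could fall in PRMT1-KO. Rises from such levels also come out smaller on log2(TPM+1), so these differences depend partly on the starting level. PRMT1 mRNA itself was 653.4 TPM with DMSO, 673.1 TPM with MS023, 859.8 TPM in isgCtrl and 304.0 TPM in PRMT1-KO.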

How the results depend on the processing

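SLAMF7, LY9 and CD38 kept their direction and call with MS023 under all alternatives in which they were tested. Without a fold threshold, calls over all genes were 6300 for MS023, 157 for PRMT1-KO and 4373 for isgCtrl against DMSO, where 8 targets were then called. For PRMT1-KO, fitting all genes above 0 left 48 calls and the replicate block none in limma, with 2054 genes at an unadjusted p under 0.05. The number of targets called in PRMT1-KO was 0 with the block, with a pseudocount of 0.1 and with all genes above 0, with 2, 2 and 3 at an unadjusted p under 0.05. CD48 had adjusted p of 0.168 with the block, 0.0527 with the pseudocount and 0.0597 with all genes above 0. Requiring a level above 1 in every sample left 4 targets tested in isgCtrl against DMSO, of which 0 were called by limma. For the difference of effects 3 targets were called with a pseudocount of 0.1, with all genes above 0 and with quantile normalization, and 1 with a level above 1 in every sample. Leaving out samples in turn gave 3707 to 3978 gene calls for MS023, 2 to 21 for PRMT1-KO, 1618 to 1858 for isgCtrl against DMSO and 3003 to 3206 for the difference. Targets called then ranged from 3 to 4, 0 to 0, 5 to 5 and 2 to 5. Signs turned for TNFRSF17 with MS023 under median-ratio scaling (0.080), for CD48 with MS023 under median-ratio scaling (0.10) and quantile normalization (0.076), and for CD47 in PRMT1-KO without PRMT1-KO replicate 3 (-0.015, with up to 0.078 when other samples were left out). The cause of these changes was not tested.

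Deviations of same-numbered samples correlated by 0.065 on average between MS023 and DMSO, -0.047 between PRMT1-KO and isgCtrl and -0.10 between isgCtrl and DMSO. Means for other pairs (-0.033, 0.024 and 0.051) largely follow from these, since deviations were taken from group means, and are no separate comparison. Whether samples of the same number belong together was thus not settled. With the block GPRC5D also lost its call for the difference of effects (adjusted p = 0.0656), and no other target's call changed. mRNA was measured and surface protein was not. Targets near 0 TPM in isgCtrl could not show a decrease, and 3 samples a group limit the precision.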
